A study of Mus musculus with 11 samples.

Results

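The basal and stress keratins of mouse 4T1 tumours were followed across 4 treatments, together with Trp63, which encodes the transcription factor p63. The 8 genes were chosen by symbol: Krt5, Krt14, Krt15 and Trp63 on the basal side, and Krt6a, Krt6b, Krt16 and Krt17 on the stress side. All 8 were found among the 17181 genes of the deposited table, and all 8 were among the 13074 genes tested. Krt6b reached the filter through palbociclib replicates 1 and 3 and combination replicate 2 alone. Krt10 was read beside them as a sign of skin tissue.

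The tumours grew from 4T1, a mouse mammary carcinoma line labelled wild type and derived from a spontaneous mammary tumour, injected under the skin of both flanks. Mice were dosed for 12 days from a tumour volume near 100 mm3. Vehicle (2 tumours, titled untreated) was sodium lactate with corn oil and DMSO. OPG-Fc (3 tumours) was injected into the peritoneum at 10 mg/kg, 3 doses each week, and palbociclib (3 tumours) was given daily by mouth at 30 mg/kg. The combination (3 tumours) received both drugs. OPG-Fc is a decoy receptor for RANKL, the cytokine that activates RANK, and palbociclib inhibits the cell cycle kinases CDK4 and CDK6. The design text places the tumours in NSG mice, which lack T, B and NK cells, whereas the title calls the model syngeneic. The labels do not give the age or sex of the mice, or which tumours shared an animal, so a p-value here speaks of the spread among the tumours alone. The column names carry numbers of unstated meaning, and the first of these is the same for OPG-Fc replicates 2 and 3 and for combination replicates 1 and 2, so these 2 pairs may not be independent.

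Keratins are the intermediate filament proteins of epithelia, and each filament pairs a type I keratin with a type II keratin. In the basal layer of the epidermis and in the basal cells of the mammary gland the pair is Krt5 (type II) with Krt14 (type I), while luminal mammary cells and simple epithelia use Krt8 with Krt18. Krt15 is a further type I keratin of basal keratinocytes and of the hair follicle bulge. Krt6a and Krt6b (type II) with Krt16 and Krt17 (type I) are switched on in wounded or otherwise stressed epidermis and are made constantly in parts of the hair follicle. p63 maintains the basal cells of stratified epithelia and activates Krt5 and Krt14. Krt10 replaces Krt14 when keratinocytes leave the basal layer.

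The coding sequences show which of these transcripts can share sequencing reads. The first 90 coding bases of the type II genes, from the GENCODE M21 transcripts on GRCm38, are given with capitals at every base that differs from Krt6a at the same place.
Krt6a, chr15:101694159-101694248, minus strand: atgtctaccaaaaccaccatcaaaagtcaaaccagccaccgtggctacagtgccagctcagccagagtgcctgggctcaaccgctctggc
Krt6b, chr15:101680134-101680223, minus strand: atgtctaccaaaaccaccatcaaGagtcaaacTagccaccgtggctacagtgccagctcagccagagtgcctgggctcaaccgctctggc
Krt5, chr15:101712721-101712810, minus strand: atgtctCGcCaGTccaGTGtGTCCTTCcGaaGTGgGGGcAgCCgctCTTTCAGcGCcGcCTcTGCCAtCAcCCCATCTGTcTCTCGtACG
Krt6b differed from Krt6a at 2 of these 90 bases and Krt5 at 61, counted place by place without gaps. When the whole coding sequences were aligned, Krt5 and Krt6a were 81.5% identical, and their transcripts shared a longest run of 140 bases. Over the whole aligned coding sequence Krt6a and Krt6b were 97.8% identical, and 29.5% of the 100-base windows of the Krt6a transcript occurred unchanged in Krt6b. The longest run shared by both transcripts was 280 bases. How reads that match both genes were divided is not given in the sources used here, so the separate levels of Krt6a and Krt6b are uncertain.

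The type I genes are given in the same way, with capitals where a base differs from Krt14.
Krt14, chr11:100207366-100207455, minus strand: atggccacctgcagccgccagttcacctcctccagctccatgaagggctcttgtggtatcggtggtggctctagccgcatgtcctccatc
Krt16, chr11:100248801-100248890, minus strand: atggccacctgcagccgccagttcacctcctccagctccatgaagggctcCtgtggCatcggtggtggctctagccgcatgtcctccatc
Krt17, chr11:100260876-100260965, minus strand: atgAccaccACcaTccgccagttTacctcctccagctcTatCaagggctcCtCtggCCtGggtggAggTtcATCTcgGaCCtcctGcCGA
Krt15, chr11:100135769-100135858, minus strand: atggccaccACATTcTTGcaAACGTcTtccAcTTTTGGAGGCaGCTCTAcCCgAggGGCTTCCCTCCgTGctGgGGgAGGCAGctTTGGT
Krt16 differed from Krt14 at 2 of the 90 bases, Krt17 at 25 and Krt15 at 61. Over the whole aligned coding sequence Krt14 and Krt16 were 86.5% identical. Of the 100-base windows of Krt14, 2.9% occurred in Krt16, and the longest run shared by these transcripts was 134 bases. Krt14 was 84.1% identical to Krt17 and 73.2% to Krt15, and 0% of its windows were shared with either. Krt5 shared 2.4% of its 100-base windows with Krt6a.

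Some libraries stood apart before any comparison. In vehicle replicate 2, epithelial transcripts were low and lymphoid transcripts high: the FPKM (fragments per kilobase of transcript, scaled to the mapped fragments of the library) of Epcam was 11.7 there and 336 to 604 in the other 10 libraries, and Cd79a, part of the B cell receptor, was at 723. Transcripts of the labelled epithelial cell type are therefore weakly represented in that library. The 21 epidermal differentiation genes in the table had a summed FPKM of 965 in palbociclib replicate 1 and 791 in palbociclib replicate 3, and of 2.24 to 83.05 in the other 9. The highest of those 9 were combination replicates 1 and 2, at 69.1 and 83.05. In bulk tissue, fewer cells of a type and less RNA per cell cannot be told apart. Main results that rest on these libraries are given with and without them.

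Krt14 was the most abundant of the 8 genes in 10 of the 11 tumours. Its FPKM was 112 and 0.88 in vehicle replicates 1 and 2. It was 121, 118 and 114 in the OPG-Fc tumours. It was 490, 147 and 485 in the palbociclib tumours and 153, 198 and 97.0 in the combination tumours. Leaving aside palbociclib replicates 1 and 3 and vehicle replicate 2, the level stayed between 97.0 and 198 over 8 tumours, a 2.04-fold range. Palbociclib replicates 1 and 3 lay 2.45-fold or more above the highest of the other 9 tumours, and vehicle replicate 2 lay far below all of them.

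Krt5, the filament partner of Krt14, varied far more. Its FPKM was 0.13 and 1.18 with vehicle, 3.26, 0.51 and 2.08 with OPG-Fc, 172, 0.82 and 153 with palbociclib, and 7.90, 11.2 and 0.24 with the combination. Over the same 8 tumours it ranged 86.2-fold, from 0.13 to 11.2, where the size of the range rests on a low value with no known counting error. Palbociclib replicates 1 and 3 were at least 13.6-fold above every other tumour, while palbociclib replicate 2 lay below vehicle replicate 2. In vehicle replicate 2 Krt5 was the highest of the 8 genes, at 1.18, with Krt14 next at 0.88.

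Krt15 was lower than Krt14 throughout. Its FPKM was 1.98 and 0.17 with vehicle, 1.43, 1.39 and 3.51 with OPG-Fc, 20.98, 2.59 and 8.88 with palbociclib, and 6.92, 5.02 and 2.34 with the combination. Palbociclib replicate 3 was only 1.28-fold above the highest other tumour, combination replicate 1, so this gene set palbociclib replicates 1 and 3 apart least clearly. Trp63 was low everywhere, with an FPKM of 0.99 and 0.35 with vehicle, 1.10, 0.43 and 0.58 with OPG-Fc, 6.43, 1.59 and 5.94 with palbociclib, and 1.05, 1.16 and 1.22 with the combination. Palbociclib replicates 1 and 3 were at least 3.74-fold above the rest. The 3 combination tumours differed little from each other in Trp63, although their Krt5 levels ran from 0.24 to 11.2.

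Among the stress keratins, Krt17 exceeded an FPKM of 5 in every tumour but vehicle replicate 2. Its FPKM was 10.2 and 0.33 with vehicle, 11.2, 10.9 and 6.58 with OPG-Fc, 110, 13.9 and 116 with palbociclib, and 14.2, 25.6 and 12.0 with the combination. Like Krt14, it stayed in a narrow range, between 6.58 and 25.6 in the 8 tumours, a 3.88-fold range. Over the same tumours Trp63 ranged 3.70-fold and Krt15 4.98-fold, both at lower levels. Krt16, which pairs with Krt6 in stressed epidermis, had an FPKM of 0.67 and 0 with vehicle, 1.66, 0.76 and 0.71 with OPG-Fc, 150, 1.49 and 198 with palbociclib, and 0.82, 5.55 and 0.32 with the combination. Apart from palbociclib replicates 1 and 3, Krt16 exceeded 2 in combination replicate 2 alone.

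Krt6a was listed at 0 in both vehicle tumours, and at 1.66, 0 and 0.36 with OPG-Fc, 115, 0.16 and 146 with palbociclib, and 1.29, 5.28 and 0 with the combination. Krt6b was at 0 and 0.04 with vehicle, 0.46, 0 and 0 with OPG-Fc, 168, 0.02 and 215 with palbociclib, and 0.23, 4.47 and 0 with the combination. Both genes were thus at or near 0 in most tumours and above 100 in palbociclib replicates 1 and 3. Combination replicate 2 came next for both.

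**Figure D1:**
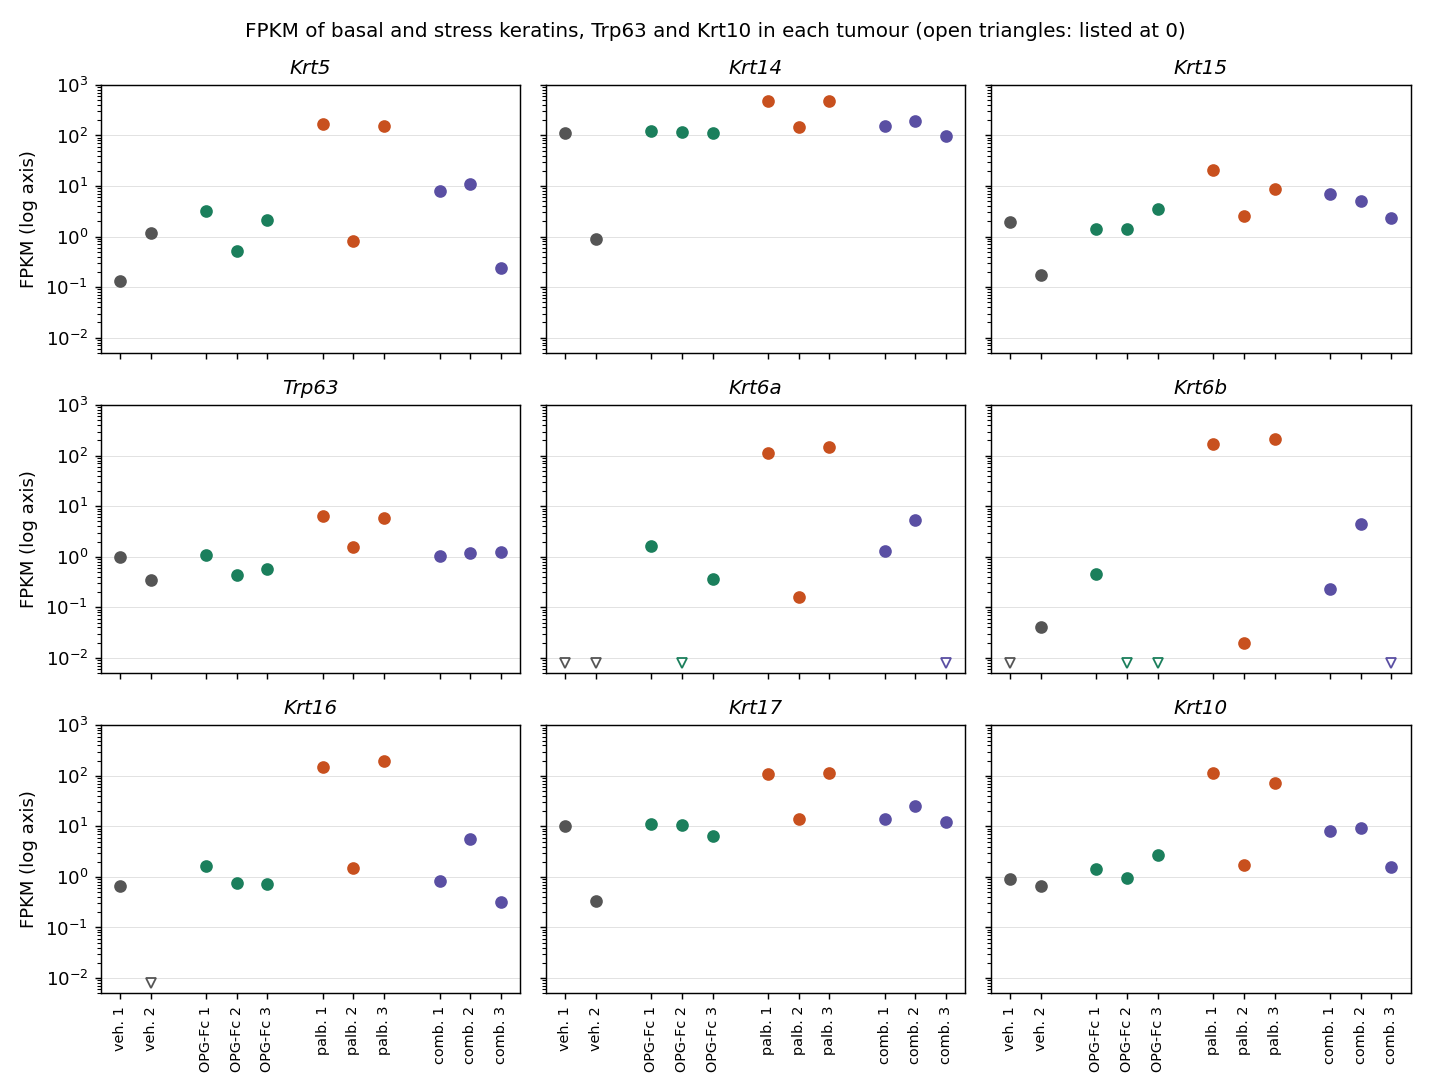
FPKM on a log axis of the 4 basal genes, the 4 stress keratins and Krt10 in each of the 11 tumours, coloured by treatment group, with open triangles for values listed at 0. Krt14 and Krt17 stay within 97.0 to 198 and 6.58 to 25.6 in 8 tumours, whereas Krt5, Krt6a, Krt6b and Krt16 are high in palbociclib replicates 1 and 3 and low elsewhere.

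FPKM is scaled by transcript length, so the levels of type I and type II genes can be set side by side. In palbociclib replicates 1 and 3 the type I members (Krt14, Krt15, Krt16 and Krt17) summed to an FPKM of 771 and 808 and the type II members (Krt5, Krt6a and Krt6b) to 455 and 513, a ratio of 1.70 and 1.57. In vehicle replicate 1 the type I sum was 125 and the type II sum 0.13, and in palbociclib replicate 2 they were 165 and 1.00. Type II sums this low have no known counting error, so the size of a ratio to them is uncertain. The ratio of type I to type II was 11.2 in combination replicate 2, 18.5 in combination replicate 1 and 25.2 to 960 in the other tumours apart from vehicle replicate 2. In these tumours basal type I transcripts had little basal or stress type II transcript beside them. The type II keratins Krt8 and Krt7 of simple epithelia together had an FPKM of 925 to 1302 in the 10 tumours other than vehicle replicate 2. Krt14 made up 77.2% to 89.5% of the summed FPKM of the 8 genes in 8 tumours, 39.8% and 36.5% in palbociclib replicates 1 and 3 and 29.8% in vehicle replicate 2.

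**Figure D2:**
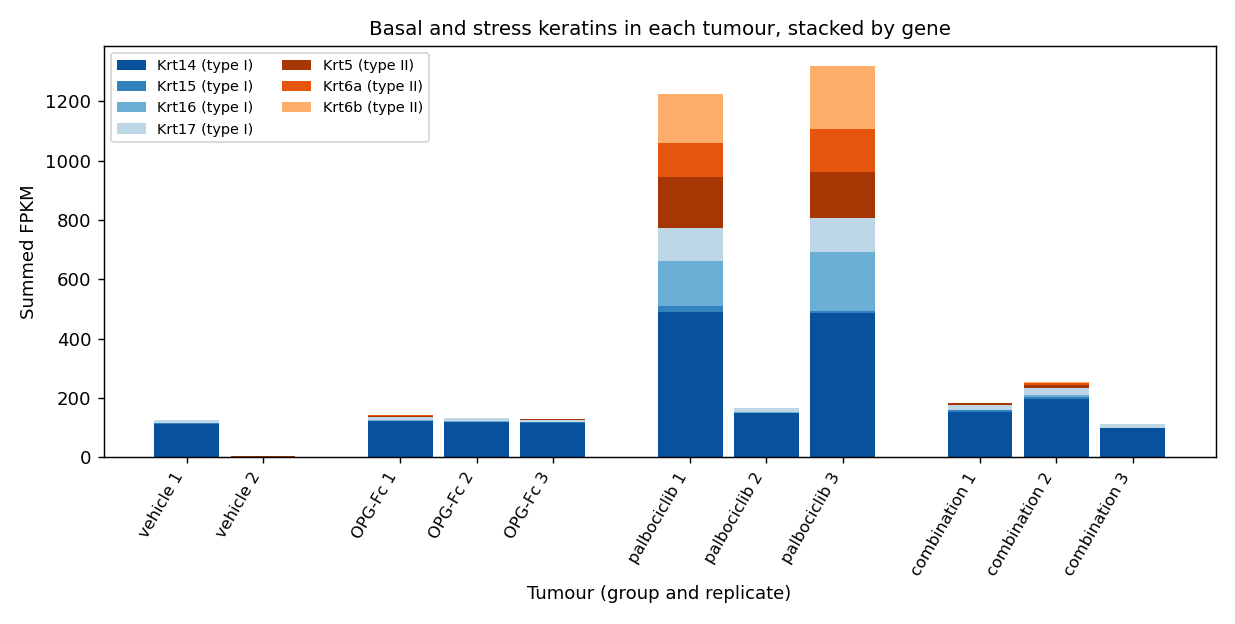
Summed FPKM of the 7 keratins in each tumour on a linear axis from 0, stacked by gene, with type I genes in blue and type II genes in orange. Type II genes take a visible part of the bar in palbociclib replicates 1 and 3, and Krt14 takes most of the bar in the other tumours except vehicle replicate 2.

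Krt10 marks differentiating epidermis, and its FPKM was 0.93 and 0.65 with vehicle, 1.43, 0.97 and 2.68 with OPG-Fc, 113, 1.74 and 73.4 with palbociclib, and 7.96, 9.37 and 1.57 with the combination. The order of tumours in Krt10 put palbociclib replicates 1 and 3 first and combination replicates 1 and 2 next, as did Krt5 and the summed epidermal genes. Ratios within a tumour do not change when each library is scaled by a single factor, and they separated the members. In those 4 tumours the ratio of Krt5 to Krt10 was 1.53, 2.08, 0.99 and 1.20, a 2.10-fold range. That of Krt14 to Krt10 was 4.36 and 6.61 in palbociclib replicates 1 and 3 but 19.2 and 21.1 in combination replicates 1 and 2, and 84.8 in palbociclib replicate 2.

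Krt6a, Krt6b and Krt16 did not keep a fixed proportion to Krt10. The ratio of Krt6a to Krt10 was 1.02 and 1.98 in palbociclib replicates 1 and 3, and 0.16 and 0.56 in combination replicates 1 and 2. Krt16 to Krt10 was 1.33 and 2.69 in the former tumours and 0.10 and 0.59 in the latter. Krt6b to Krt10 was 1.49 and 2.93 against 0.029 and 0.48, where the lowest ratio rests on a Krt6b FPKM of 0.23 with no known counting error. Combination replicates 1 and 2 had similar Krt10 and Krt5 levels, yet Krt6b was 0.23 in the first and 4.47 in the second. Krt15 went the other way, with a ratio of 0.19 and 0.12 in palbociclib replicates 1 and 3 and 0.87 and 0.54 in combination replicates 1 and 2. Krt17 ranged 2.79-fold in its ratio to Krt10, from 0.98 to 2.73, and Trp63 2.31-fold. The 4 tumours were picked by their Krt10 level, so these ratios are a description with no test. The 8 keratins of the hair follicle list that the table holds were nearly absent in all 11 tumours, and their highest value was an FPKM of 0.28, for Krt83. The most abundant genes of that list are no keratins. Outside vehicle replicate 2, Sox9 was at 7.56 to 16.3 and Padi3 at 3.98 to 7.89.

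**Figure D3:**
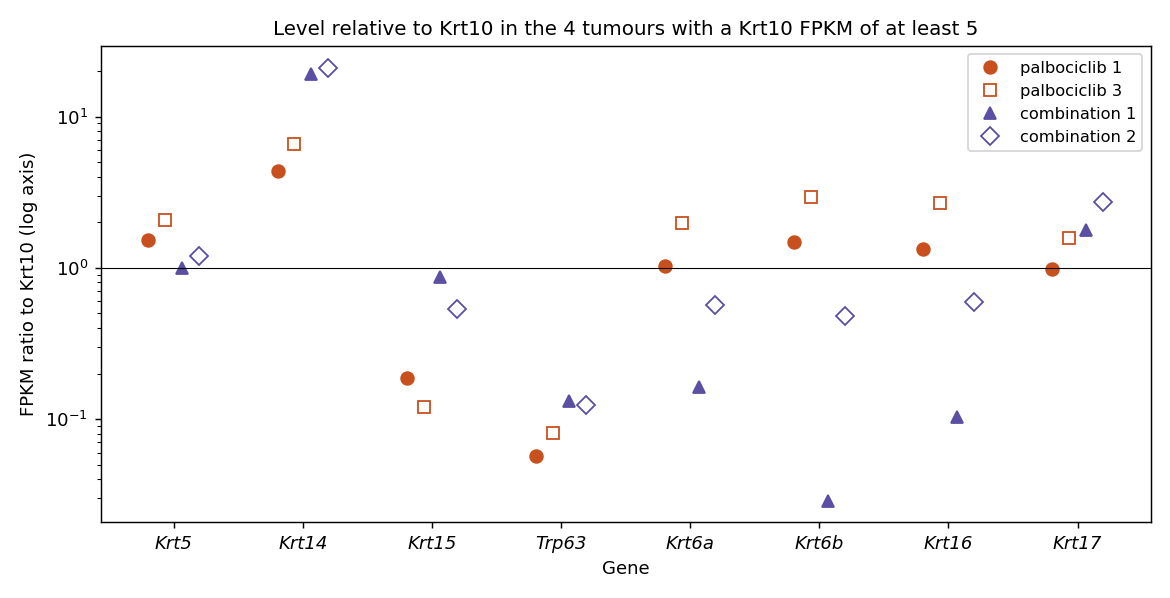
FPKM of each gene divided by that of Krt10, on a log axis, in the 4 tumours with a Krt10 FPKM of at least 5 (2 palbociclib and 2 combination). Krt5, which runs from 0.99 to 2.08, is higher in both palbociclib tumours, as are Krt6a, Krt6b and Krt16. Krt14, Krt15, Krt17 and Trp63 are lower in both.

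Palbociclib was set against vehicle to ask what CDK4/6 inhibition does in these tumours. All 8 genes had higher means with palbociclib, and 0 of the 8 passed limma's test (Benjamini-Hochberg adjusted p under 0.05, over every gene tested). Of all genes 0% passed, and 3671 had an unadjusted p under 0.05. On the log2(FPKM + 1) scale, which understates the change of low genes, Krt5 differed by 4.54 ± 1.78 (SE, n = 3 against 2; limma adjusted p = 0.162). Krt14 differed by 4.49 ± 1.32 and Krt17 by 3.91 ± 1.00 (limma adjusted p = 0.158 for both). The differences of Krt6a, Krt6b and Krt16 were 4.76 ± 1.77, 5.03 ± 1.92 and 5.03 ± 1.59, and those of Krt15 and Trp63 were 2.30 ± 0.72 and 1.64 ± 0.42. The median over the 8 genes was 4.52, beside -0.04 over all 13074 genes, and Krt10 differed by 4.00 ± 1.33. The part of skin transcripts in these differences was not tested. Every palbociclib tumour was above both vehicle tumours for 6 of the 8 genes, as for 16.4% of all genes. For Krt5 and Krt6b the groups overlapped, because palbociclib replicate 2 lay under vehicle replicate 2. Without vehicle replicate 2 all 8 were above the remaining vehicle tumour in every palbociclib tumour, as were 29% of all genes.

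Single libraries decided the size of this comparison. Without vehicle replicate 2, which left 1 vehicle tumour that was assumed to vary like the other groups, Krt14 was at 1.54 ± 0.60 and Krt17 at 2.38 ± 0.96 (limma adjusted p = 0.468 and 0.480), and again 0 of 8 passed, with 0% of all genes and 1267 genes at an unadjusted p under 0.05. Without palbociclib replicates 1 and 3, which left palbociclib replicate 2 alone, Krt5 was at 0.21 ± 1.30, Krt6a at 0.21 ± 1.00, Krt16 at 0.95 ± 0.88 and Krt10 at 0.62 ± 0.80. Krt14 was at 3.35 ± 1.92 and Krt17 at 1.95 ± 1.08 in that fit, with vehicle replicate 2 among the controls, and Krt6b no longer reached the filter. Without palbociclib replicate 2, so that the palbociclib group was replicates 1 and 3, 6 of the 8 (Krt5, Trp63, Krt6a, Krt6b, Krt16 and Krt17) passed, with 1.19% of all genes. That fit keeps the palbociclib tumours with the highest levels of these genes, so its calls are a description and no test of treatment. Krt5 differed there by 6.70 ± 0.99, Krt6b by 7.55 ± 0.69 and Krt10 by 5.69 ± 0.62. Without vehicle replicate 1, 5 of the 8 (Krt14, Krt15, Trp63, Krt16 and Krt17) passed, with 52.1% of all genes and with Krt14 at 7.45 ± 0.60 against vehicle replicate 2 alone.

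**Figure D4:**
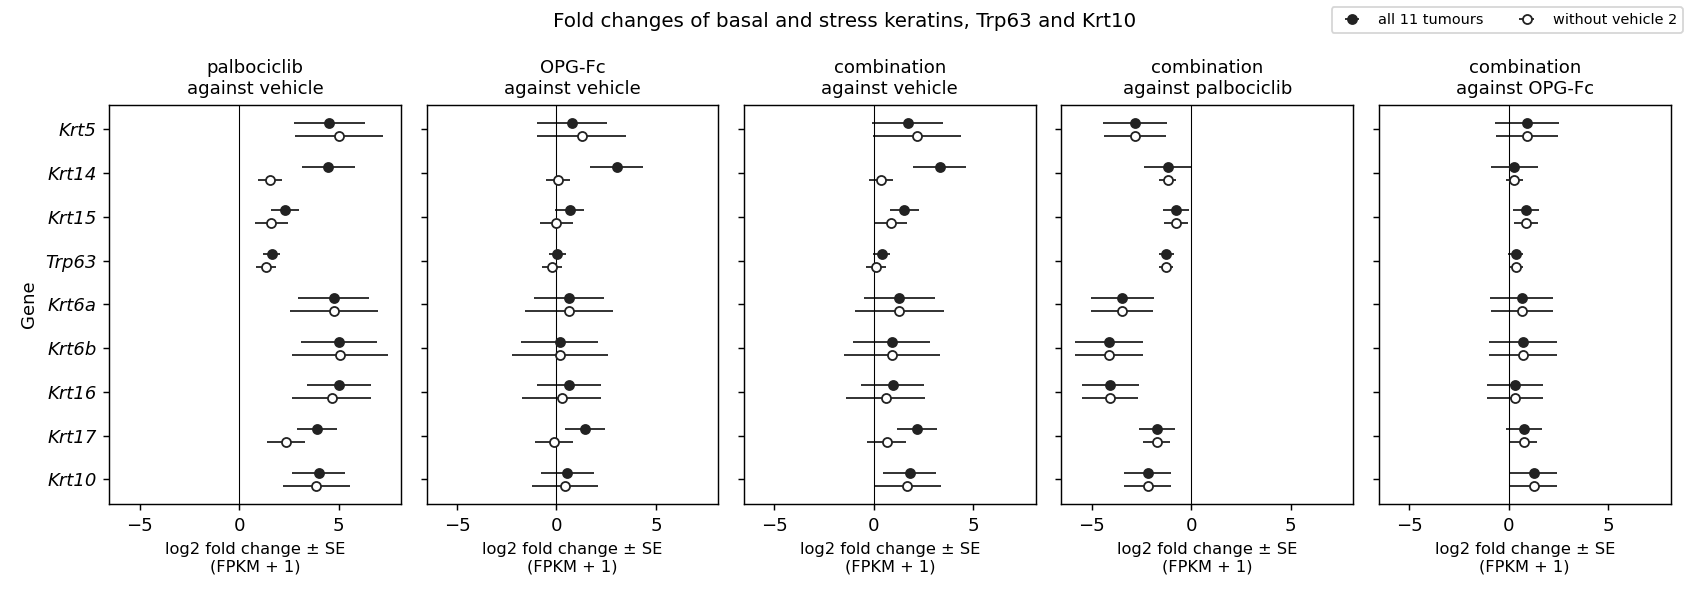
Log2 fold changes with standard errors of the 8 genes and Krt10 in 5 comparisons, with all 11 tumours (filled) and without vehicle replicate 2 (open). In palbociclib against vehicle Krt14 moves from 4.49 to 1.54 when that library is left out, while Krt5, Krt6a, Krt6b and Krt16 stay between 4.54 and 5.06 with wide errors.

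OPG-Fc was set against vehicle to ask what RANKL blockade does alone. Of the 8 genes 0 passed in limma, with 0% of all genes and 1328 genes at an unadjusted p under 0.05. Krt14 differed by 3.03 ± 1.32 (limma adjusted p = 0.471) with all 11 libraries and by 0.07 ± 0.60 without vehicle replicate 2, when again 0 of 8 passed, with 0.0311% of all genes and 1619 genes at an unadjusted p under 0.05. Krt17 differed by 1.42 ± 1.00 and -0.12 ± 0.96, and Krt10 by 0.54 ± 1.33 and 0.43 ± 1.67. The 3 OPG-Fc tumours, at a Krt14 FPKM of 114 to 121, lay close to vehicle replicate 1 at 112. Krt5 differed by 0.79 ± 1.78, Krt6a by 0.62 ± 1.77, Krt6b by 0.15 ± 1.92, Krt16 by 0.63 ± 1.59, Krt15 by 0.67 ± 0.72 and Trp63 by 0.04 ± 0.42. Groups did not overlap for Krt14 and Krt16, both higher with OPG-Fc, as for 12.7% of all genes.

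The combination was set against vehicle in the same way, and 0 of 8 passed in limma, with 0% of all genes and 3866 genes at an unadjusted p under 0.05. Krt14 differed by 3.31 ± 1.32 (limma adjusted p = 0.141) and Krt17 by 2.17 ± 1.00, and without vehicle replicate 2 by 0.35 ± 0.60 and 0.64 ± 0.96. Without that library 0 of 8 passed, with 0.0622% of all genes and 3022 genes at an unadjusted p under 0.05. Krt5 differed by 1.71 ± 1.78, Krt15 by 1.54 ± 0.72 and Krt6a by 1.28 ± 1.77, and Krt16, Krt6b and Trp63 by 0.96 ± 1.59, 0.89 ± 1.92 and 0.39 ± 0.42, beside 1.80 ± 1.33 for Krt10. Krt15, Trp63 and Krt17 were higher in every combination tumour than in either vehicle tumour, as for 18% of all genes. The 3 comparisons with vehicle share the same 2 control tumours.

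The combination was set against palbociclib to ask what adding OPG-Fc changes. All 8 genes had lower means with the combination, and 0 of 8 passed in limma, with 0% of all genes and 883 genes at an unadjusted p under 0.05. Krt6b differed by -4.14 ± 1.71 and Krt16 by -4.07 ± 1.42 (n = 3 against 3; limma adjusted p = 0.730 for both). Krt6a differed by -3.48 ± 1.58, Krt5 by -2.83 ± 1.59, Krt17 by -1.74 ± 0.90, Trp63 by -1.25 ± 0.38, Krt14 by -1.19 ± 1.19 and Krt15 by -0.76 ± 0.64. The median over the 8 genes was -2.28, beside 0.02 over all genes, and Krt10 differed by -2.20 ± 1.19. Without vehicle replicate 2, 0 of 8 passed, with 0% of all genes and 2316 genes at an unadjusted p under 0.05. The groups overlapped for every gene but Trp63, whose highest combination value of 1.22 was below the lowest palbociclib value of 1.59, as for 7.04% of all genes. Without palbociclib replicates 1 and 3 the sign turned for 5 genes: Krt5 was at 1.49 ± 1.22, Krt6a at 1.07 ± 0.94, Krt15 at 0.59 ± 0.67, Krt17 at 0.22 ± 1.02 and Krt16 at 0.0092 ± 0.83. Krt14 and Trp63 stayed below 0, at -0.04 ± 1.81 and -0.27 ± 0.33, and Krt6b was not tested. Without palbociclib replicate 2, Krt5, Krt6a, Krt6b, Krt16 and Trp63 (5 of the 8) passed as lower, with 1.09% of all genes, and Krt10 was at -3.89 ± 0.57. This again compares with the palbociclib tumours of highest level and is a description.

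Against OPG-Fc, the combination shows palbociclib added to RANKL blockade. Of the 8 genes 0 passed in limma, while 0.0994% of all genes did and 2020 had an unadjusted p under 0.05. Without vehicle replicate 2, 0 of 8 passed and 5.16% of all genes did, with 4064 at an unadjusted p under 0.05. Differences were small beside their errors, from 0.28 ± 1.19 for Krt14 to 0.92 ± 1.59 for Krt5, with Krt15 at 0.87 ± 0.64, Krt17 at 0.75 ± 0.90, Krt6b at 0.73 ± 1.71, Krt6a at 0.66 ± 1.58, Trp63 at 0.35 ± 0.38 and Krt16 at 0.32 ± 1.42. Krt10 was at 1.25 ± 1.19. Krt17 was the 1 gene whose groups did not overlap, with combination tumours at 12.0 to 25.6 and OPG-Fc tumours at 6.58 to 11.2, as for 15.3% of all genes. The interaction, which asks whether palbociclib acts differently with OPG-Fc, passed for 0 of 8 genes and 0% of all genes, with 709 genes at an unadjusted p under 0.05. Its estimates were negative for all 8, from -1.29 ± 0.57 for Trp63 to -4.70 ± 2.13 for Krt16 (limma adjusted p = 0.647 for both). Between these lay Krt15 at -1.43 ± 0.96, Krt17 at -3.16 ± 1.34, Krt5 at -3.62 ± 2.39, Krt6a at -4.09 ± 2.37, Krt14 at -4.22 ± 1.78 and Krt6b at -4.30 ± 2.57, and Krt10 was at -2.74 ± 1.79. Without vehicle replicate 2, 0 of 8 passed, with 0% of all genes and 630 genes at an unadjusted p under 0.05. Krt14 was then at -1.26 ± 0.74 and Krt17 at -1.62 ± 1.18. Without palbociclib replicates 1 and 3 the sign turned for Krt5, at 0.71 ± 1.56, and for Krt6a, at 0.45 ± 1.20.

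Genes that work beside these keratins were read from lists chosen by function. Of 11 genes of basal cell adhesion in the table, 0 passed in palbociclib against vehicle, and the median difference was 1.72, or -0.10 when vehicle replicate 2 was left out (-0.04 and -0.03 over all genes). Itga3, an integrin subunit that binds laminin, had an FPKM of 271 and 2.02 with vehicle and 263, 193 and 219 with palbociclib. Itgb4, the hemidesmosomal integrin, was at 57.3 and 2.26 with vehicle and at 80.1, 50.4 and 68.4 with palbociclib. In vehicle replicate 1 and palbociclib replicate 2 both integrin genes were thus high beside a Krt5 FPKM of 0.13 and 0.82, while in vehicle replicate 2 all 3 genes were low. Of 16 tested genes linked to p63 and stratified epithelia, 0 passed and the medians were 1.39 and 0.73. Perp, a desmosomal protein and p63 target, had an FPKM of 248 and 244 in palbociclib replicates 1 and 3, 199 in vehicle replicate 1 and 85.3 to 159 in the others except vehicle replicate 2.

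The 17 tested epidermal differentiation genes had medians of 2.77 and 2.48, and 0 passed. Without palbociclib replicates 1 and 3, which left palbociclib replicate 2 alone, the median was 0.44 over the 9 genes still tested. Krtdap, a keratinocyte differentiation protein, had an FPKM of 342, 0.36 and 329 with palbociclib, 14.96, 21.9 and 0 with the combination, 1.74, 0 and 1.07 with OPG-Fc and 0 in both vehicle tumours. Of 16 tested wound and stress keratinocyte genes 0 passed, with medians of 1.28 and 0.81. Their median without palbociclib replicates 1 and 3 was 0.52, over the 12 genes still tested. The median FPKM over the 17 genes of that list in the table was 11.2 and 19.6 in palbociclib replicates 1 and 3 and 0.84 to 4.56 in the other 9 tumours. Its most abundant genes, Slpi and Lcn2, had another order. Lcn2, an iron-binding acute phase protein also made by neutrophils, was at 949, 1082 and 894 with palbociclib, so that palbociclib replicate 2 was the highest of the 3. Slpi, a protease inhibitor, was highest in vehicle replicate 2, at 4999. In the simple epithelial list, 0 of 6 tested genes passed, with medians of 2.36 and 0.29. Krt8 had an FPKM of 736, 724 and 684 with palbociclib and 593 in vehicle replicate 1, so palbociclib replicates 1 and 3 did not stand apart in that keratin. The 10 epithelial genes had medians of 2.70 and 0.28, and the 3 tested of 16 hair follicle genes 1.22 and -0.18, with 0 passing in either list. Of the 5 other cell type lists, for myoepithelium with smooth muscle, sebaceous gland, adipocytes, lymphoid tissue and skeletal muscle, 0 genes passed, with medians of -0.24, 0.45, -1.63, -4.07 and 2.77. Without vehicle replicate 2 these were -0.26, 0.48, -0.16, -0.49 and 2.05. Without palbociclib replicates 1 and 3, the adhesion, p63-linked, simple epithelial and epithelial lists had medians of 1.22, 1.58, 2.50 and 2.74. Vehicle replicate 2 was among the controls in that fit. The summed FPKM of the muscle list was 99.3 to 205 in palbociclib replicates 1 and 3 and 7.77 to 449 in the other 9.

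The keratin family of 38 genes in the table, of which 18 were tested, divided in the same way. Both palbociclib replicates 1 and 3 were above the other 9 tumours for 12 of the 18 and for all 8 genes described here, a pattern found in 4.12% of all tested genes. Besides the 7 keratin members these were Krt1, Krt10, Krt77, Krt79 and Krt80. The 6 that did not show it were Krt7, Krt8, Krt13, Krt18, Krt19 and Krt23. These libraries were singled out by their values, so the counts are a description.

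For Krt5, Krt14, Krt6a, Krt17 and Trp63, the genes outside the 8 that were most like them were ranked by Pearson's r of log2(FPKM + 1), as a description over libraries that share their scaling. Over all 11 libraries Krtdap, Calm4, Dmkn, Stfa3 and Sprr1a were most like Krt5, with r from 0.98 to 0.99, and Krt10 ranked 8th at 0.98. For Krt6a they included Cysrt1, Lypd5, Trim29 and Spink5, with r of 0.98 to 0.99, beside 0.99 for Krt6a with Krt6b and with Krt16. Palbociclib replicates 1 and 3 hold most of the spread in these values. Over the 9 libraries without them, Krt5 was most like Cenpk, Krtdap, Trim29, Spink5 and Dnaja2 (r = 0.94 to 0.97), and Krt10 was at 0.88. Krt6a was then most like Ap3s1, Tph1, Dsg3, Gadl1 and Stfa3 (r = 0.94 to 0.97).

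Krt14 and Krt17 had other neighbours. Over 11 libraries Krt14 was most like Serpinb5, Anxa8, Ccdc57, Ano9 and Llgl1 (r = 0.98 to 0.99), and its r with Krt10 was 0.62. Over 9 libraries it was most like Niban2, Wwc1, Ankrd1, Smtn and Spats2, all at 1.00 when rounded, and Krt8 ranked 8th at 1.00, with the low value of vehicle replicate 2 in all of them. Krt17 was most like Pkp1, Cers3, Baiap2l1, Ovol1 and Lrrc1 over 11 libraries (r = 0.93 to 0.96), and most like Mettl7b, Zswim4, Osbpl10, Dyrk3 and Ano10 over 9 (r = 0.98 to 0.99). Its r with Krt10 was 0.87 over 11 libraries and 0.58 over 9, and with Krt8 0.70 and 0.94. Vehicle replicate 2, among these 9, was the lowest in both genes, with an FPKM of 0.33 for Krt17 and 9.34 for Krt8. The genes most like Trp63 over 11 included Bnipl, Tprg, Lgals7 and Csta1 (r = 0.96 to 0.97). Over 9 it was most like Tm2d1, Thoc7, Ccdc122, Mafa and Cln8 (r = 0.91 to 0.93), in a range of FPKM from 0.35 to 1.59.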

How the data were processed

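RNA of 11 tumours was extracted, enriched for poly(A) and sequenced, per the labels' protocols. HISAT, Bowtie2 and RSEM and the builds GRCm39 and mm39 are named in the submitters' processing notes, with no versions or roles. The authors deposited FPKM values, per the file headers, rounded to 2 decimals. Summed FPKM ranged from 576700 to 864670 over the libraries. The table holds no counts, so the read depth is unknown and no counting intervals are given. No pair of libraries was identical.

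The test covered genes that reached an FPKM of 1 in 2 or more libraries, as log2(FPKM + 1) with limma 3.58.1 in R 4.3.3, with 1 mean per group, all 11 libraries in 1 fit and a trend in the variance prior. P-values were adjusted by Benjamini-Hochberg over all genes of a comparison, with a threshold of 0.05. The fit was tested on simulated data. Sequence identity was computed with Biopython 1.88 on GENCODE M21 transcripts (GRCm38), a build other than the authors', and Python 3.11.15 with matplotlib 3.10.9 drew the figures. The 8 genes, the lists and the tests were chosen with earlier results of these data known. All 8 genes and Krt10 are given in each comparison, list genes are among the 4 of their list with the highest mean FPKM, and Cd79a and Epcam serve as library checks. For 5 of the 8 genes, the 5 other genes most like them by Pearson's r are named, except 1 gene that is not reported here. Alternatives were a pseudocount of 0.1, no filter, an FPKM of at least 5, 2 other scalings, no variance trend, the replicate number as a block, each library left out, and 2 sets of libraries left out. Averaging libraries whose column names share their first number was added after seeing the data.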

Additional observations from a re-analysis of the deposited data

How the results depend on the processing

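The number of the 8 genes passing was 0 in every comparison under each pseudocount, filter, scaling, variance trend and block tried, and with libraries of a shared first column number averaged, an alternative chosen after seeing the data. With 1 library left out it ranged from 0 to 6 for palbociclib against vehicle, 0 to 2 for OPG-Fc against vehicle, 0 to 3 for the combination against vehicle, 0 to 5 for the combination against palbociclib and 0 to 3 for the interaction, and stayed at 0 for the combination against OPG-Fc. The highest of these came without palbociclib replicate 2 or without vehicle replicate 1. Over all genes, the calls with 1 library left out ranged from 0 to 6799, 0 to 5270, 0 to 6638, 0 to 143 and 0 to 4798 in the same 5 comparisons, and from 0 to 664 for the combination against OPG-Fc, where 13 passed with all 11 libraries. Without vehicle replicate 1, 621 passed there. A pseudocount of 0.1 left 1 gene passing with palbociclib and 13 with the combination, each against vehicle. Quantile normalization left 3 and 6, and the filter of 5 FPKM 90 for the combination. The combination against OPG-Fc had 0 calls with the pseudocount of 0.1, no filter, either scaling, the replicate block, the averaged libraries, or without palbociclib replicates 1 and 3, and 216 without these and vehicle replicate 2. The cause of these changes was not tested.

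Of the fold changes, 1059 kept their direction and side of the threshold, 28 newly passed and 35 changed sign. Without palbociclib replicates 1 and 3, with or without vehicle replicate 2, the combination against palbociclib turned to 1.49 for Krt5, 0.59 for Krt15, 1.07 for Krt6a, 0.0092 for Krt16, 0.22 for Krt17 and 1.18 for Krt10. The interaction turned to 0.71 for Krt5, 0.45 for Krt6a and 0.63 for Krt10, and when vehicle replicate 2 was left out as well to 0.23, 0.45 and 0.75, with Krt15 at 0.60 and Krt17 at 0.33. For OPG-Fc against vehicle, leaving out 1 library gave 0.32 to -0.24 for Trp63, 1.34 to -0.0049 for Krt15, 2.95 to -0.12 for Krt17 and 0.24 to -0.028 for Krt6b, and the values without vehicle replicate 2 held without palbociclib replicates 1 and 3 as well. Quantile normalization gave -0.37 for Trp63 there, and the replicate block -0.031 for Trp63 and -0.11 for Krt6b. For the combination against OPG-Fc, leaving out 1 library gave 0.79 to -0.37 for Krt16, 1.30 to -0.021 for Krt6a and 1.19 to -0.033 for Krt6b. Averaging the libraries of a shared number gave -0.0090 for Krt16 there. Deviations of same-numbered libraries from their group means had r from -0.41 to 0.53 over 15 pairs, with a median of -0.03. Of these pairs 5 were above 0.1, and the median over the 30 other pairs was 0.02. The 2 vehicle libraries mirror each other around their mean, so this cannot decide whether the numbers are pairs. The labels state no pairing, and the numbers were not used as pairs. With the replicate block 0 of the 8 genes passed in each comparison.

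Read depth is unknown, so no counting error can be given for values near 0, and the vehicle group had 2 tumours of which 1 was low in epithelial transcripts. When libraries were rescaled, 185 FPKM levels shifted by less than the standard deviation of their group and 13 did not. Krt6a was 0 in both vehicle tumours, so that spread was 0 and these values count among the 13 even if unmoved. In the palbociclib group the standard deviation was wide, at 93.7 for Krt5 and 196 for Krt14, so large shifts could count among the 185.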
